A study of Mus musculus with 15 samples.

Results

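Aminoacyl-tRNA synthetases attach each amino acid to its own tRNA, and their genes were followed here in the cortex of aged mice with a substitution in a ribosomal protein. The set holds 39 genes chosen by name: 20 encode cytosolic enzymes or enzyme subunits, 16 encode mitochondrial enzymes, and 3 encode Aimp1, Aimp2 and Eef1e1, the non-enzyme proteins that hold several cytosolic enzymes together in the multisynthetase complex. All 39 were matched to a row by their GRCm38 symbol, out of 22524 gene rows in each table, and all 39 were among the 14989 genes with enough reads to test. RNA was sequenced from 15 female C57BL/6 mice aged 18 months, 1 library per animal. The 7 animals of the D95N group were heterozygous for D95N in Rps9, the gene of a small-subunit ribosomal protein, and carried 1 normal copy. The 8 animals of the wild-type (WT) group were their littermates with 2 normal copies. No treatment is named for either group, and neither group carries a Cre or another transgene in the labels.

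Synthetases fall into 2 structural classes, I and II, with unrelated catalytic domains. The cytosolic enzymes charge tRNAs for the translation of nuclear genes, and the mitochondrial enzymes, also encoded in the nucleus, charge tRNAs for the few proteins made inside mitochondria. Kars and Gars each give rise to both a cytosolic and a mitochondrial enzyme, and mitochondrial glutaminyl-tRNA is made by amidation of a misacylated tRNA, so these have no separate mitochondrial gene in the set. Transcription factor ATF4, made when the kinase Gcn2 senses uncharged tRNA, is known to raise many cytosolic synthetase genes through a short promoter element. Neurons and glia of the mature cortex depend on both sets, and inherited defects of several synthetases affect the nervous system or its nerves.

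Total counts per library ran from 23349381 to 34587082 and did not differ between the genotypes beyond their spread (exact permutation test, two-sided, p = 0.14). The sample labels name skeletal muscle and the series design names brain cortex. Summed over 8 muscle markers, levels were 7.26 to 30.8 CPM (read counts scaled by library size and TMM factors), against 8058 to 9884 CPM over 8 neuronal markers, and no marker of either list was at 0 in every library. Among 8 blood cell markers all 8 were lower in D95N, with summed levels of 37.3 to 149 CPM in D95N and 81.4 to 312 CPM in WT. Of 8 meningeal fibroblast markers 3 were lower (44.6 to 80.7 CPM and 66.3 to 107 CPM). Of 5 astrocyte markers 3 were lower, and of 8 neuronal markers 4 were higher and 1 lower. Of 7 striatal markers 4 were lower and of 4 endothelial markers 1 was lower. No oligodendrocyte, microglia, choroid plexus or muscle marker was called. Among all genes tested 15.2% were higher and 11.6% lower (edgeR, adjusted p under 0.05). In bulk tissue, fewer cells of a type and less RNA per cell cannot be told apart.

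A few cytosolic synthetase transcripts, led by Hars, were slightly more abundant in D95N, and the scaffold transcripts Aimp1 and Aimp2 were less abundant. Of the 20 cytosolic genes 5 rose and none fell at an adjusted p under 0.05 (edgeR quasi-likelihood test, Benjamini-Hochberg adjustment over all genes), with folds of 1.07 to 1.16. None of the 16 mitochondrial genes passed by that test, 4 had an unadjusted p under 0.05 (39.9% of all genes tested did), and 1 passed by DESeq2 (27.4% of all genes). Of the 3 scaffold genes 2 fell. Called either way were 5 of 20 cytosolic genes (25%) and 7 of all 39 (17.9%), near or below the 26.8% of all genes tested. By direction, 25% of the cytosolic genes were higher and none lower, against 15.2% higher and 11.6% lower among all genes tested. Whether these shares differ was not tested. In no member did all 7 D95N libraries lie beyond all 8 WT libraries, which happened in 3.28% of all genes tested (1.81% higher, 1.47% lower). The log2 fold change was above 0 in 18 of 20 cytosolic genes, in 6 of 16 mitochondrial genes and in 0 of 3 scaffold genes, against 7207 of 14989 genes overall. The median log2 fold change was 0.08 for the cytosolic genes, -0.03 for the mitochondrial genes and -0.16 for the scaffold genes, against -0.01 for all genes tested. Summed over the genes of a set, the cytosolic enzymes came to 1755 to 1803 CPM in WT and 1809 to 1955 CPM in D95N, the mitochondrial enzymes to 314 to 347 CPM and 307 to 353 CPM, and the scaffold genes to 84.1 to 91.3 CPM and 77.5 to 86.3 CPM. The cytosolic sums of the genotypes did not overlap, but these sums depend on the scaling, and the most abundant genes weigh most in them. How often sums over other sets of genes separate the genotypes was not looked at. The numbers of calls depended on scaling. With library totals in place of TMM factors, 1 cytosolic gene was higher, 3 mitochondrial and 2 scaffold genes were lower, and 15 of 20 cytosolic log2 fold changes were above 0, while 29% of all genes tested passed, 12.1% higher and 16.9% lower. With upper-quartile factors these counts were 2, 3, 2 and 17, with 28.5% of all genes passing, 12.8% higher and 15.7% lower. Leaving out any 1 library gave 6 to 10 members called, with 21.7% to 33.1% of all genes.

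**Figure D1:**
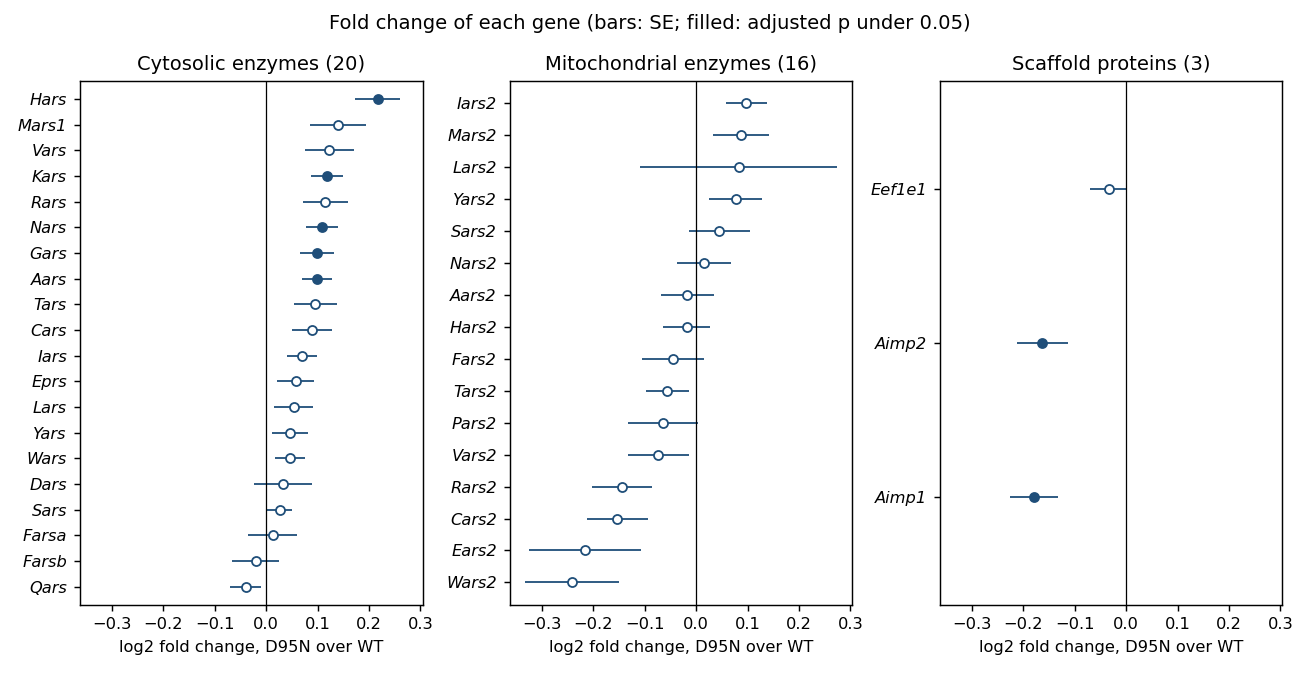
Log2 fold change of D95N over WT (x axis) for each gene (y axis), with its SE as a bar and a filled point where the adjusted p was under 0.05. The cytosolic genes lie mostly to the right of 0, at -0.04 to 0.22, the mitochondrial genes lie on both sides, at -0.24 to 0.10, and the 3 scaffold genes lie to the left.

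Hars, the cytosolic histidyl-tRNA synthetase (ENSMUSG00000001380, GRCm38 chromosome 18, 36766528 to 36783205, minus strand), changed most among the called members. In WT it stood at 99.8 CPM at the lowest, 102 CPM at the median and 112 CPM at the highest, and in D95N at 110, 120 and 134 CPM. Of the 7 D95N libraries 6 lay above every WT library, and D95N 41 lay inside the WT range, below WT 11 and 16. Means were 104 ± 5.12 CPM (SD, n = 8) and 121 ± 8.80 CPM (SD, n = 7), a log2 fold change of 0.22 ± 0.04 (SE) with an adjusted p of 0.00234 by edgeR. Hars kept its call by DESeq2, under both other scalings and without any 1 library, and lost it with blood and meningeal marker scores as covariates, where its log2 fold change was 0.09 (adjusted p = 0.588). Hars2, the mitochondrial enzyme for the same amino acid, starts beside it on the other strand and shares 195 exon bases with it (7.97% of the exon bases of Hars). It stood at 21.6 CPM in WT and 21.3 CPM in D95N, with a log2 fold change of -0.02 (adjusted p = 0.80). Whether counting used strand is not known here, so reads from shared bases cannot be assigned.

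Kars, the lysyl-tRNA synthetase of both compartments and a member of the multisynthetase complex (ENSMUSG00000031948, chromosome 8, 111993443 to 112011323), ran from 71.6 CPM through a median of 74.3 CPM to 77.3 CPM in WT. In D95N it ran from 75.7 CPM through 80.2 CPM to 85.0 CPM. All D95N libraries but D95N 44 lay above every WT library. By edgeR its log2 fold change was 0.12 ± 0.03 (SE) at an adjusted p of 0.00945, and with library totals it was 0.08 and missed the threshold (adjusted p = 0.0552).

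Nars, the asparaginyl-tRNA synthetase (ENSMUSG00000024587, chromosome 18, 64499647 to 64516652), had the highest count of any member. Its WT libraries ran from 235.9 CPM through 242.0 CPM to 251 CPM and its D95N libraries from 245 CPM through 266 CPM to 276 CPM. D95N 28 and 50 lay within the WT range and the other 5 above it. This is a log2 fold change of 0.11 ± 0.03 (SE) with an adjusted p of 0.0168 by edgeR.

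Aars, the alanyl-tRNA synthetase (ENSMUSG00000031960, chromosome 8, 111033144 to 111057664), stood at 196, 199 and 205 CPM in WT at the lowest, median and highest, and at 199, 213 and 227 CPM in D95N. D95N 41, the lowest, lay inside the WT range and the other 6 above it. Of the exon bases of Aars 14.3% are shared with Exosc6, a gene on the same strand that has no row of its own. The counts of Aars are therefore less certain. The edgeR fit gave 0.10 ± 0.03 (log2 fold change with SE, adjusted p = 0.0214). After correction for GC content and length, where 29.7% of all genes passed, it was 0.04 and missed the threshold (adjusted p = 0.314).

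Gars, the glycyl-tRNA synthetase of both compartments (ENSMUSG00000029777, chromosome 6, 55038007 to 55079500), stood at 132, 135 and 138 CPM in WT and at 135, 145 and 155 CPM in D95N. D95N 41 and 42 lay within the WT range and the other 5 above it. Its edgeR call was the weakest of the 5, at a log2 fold change of 0.10 ± 0.03 (SE) with an adjusted p of 0.0332. The call was lost without any 1 of 8 libraries (D95N 4, 21, 44 or 50, or WT 11, 24, 30 or 43), with adjusted p up to 0.0696. Nars, Aars and Gars also lost their calls under both other scalings, where their log2 fold changes were 0.06 to 0.09.

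**Figure D2:**
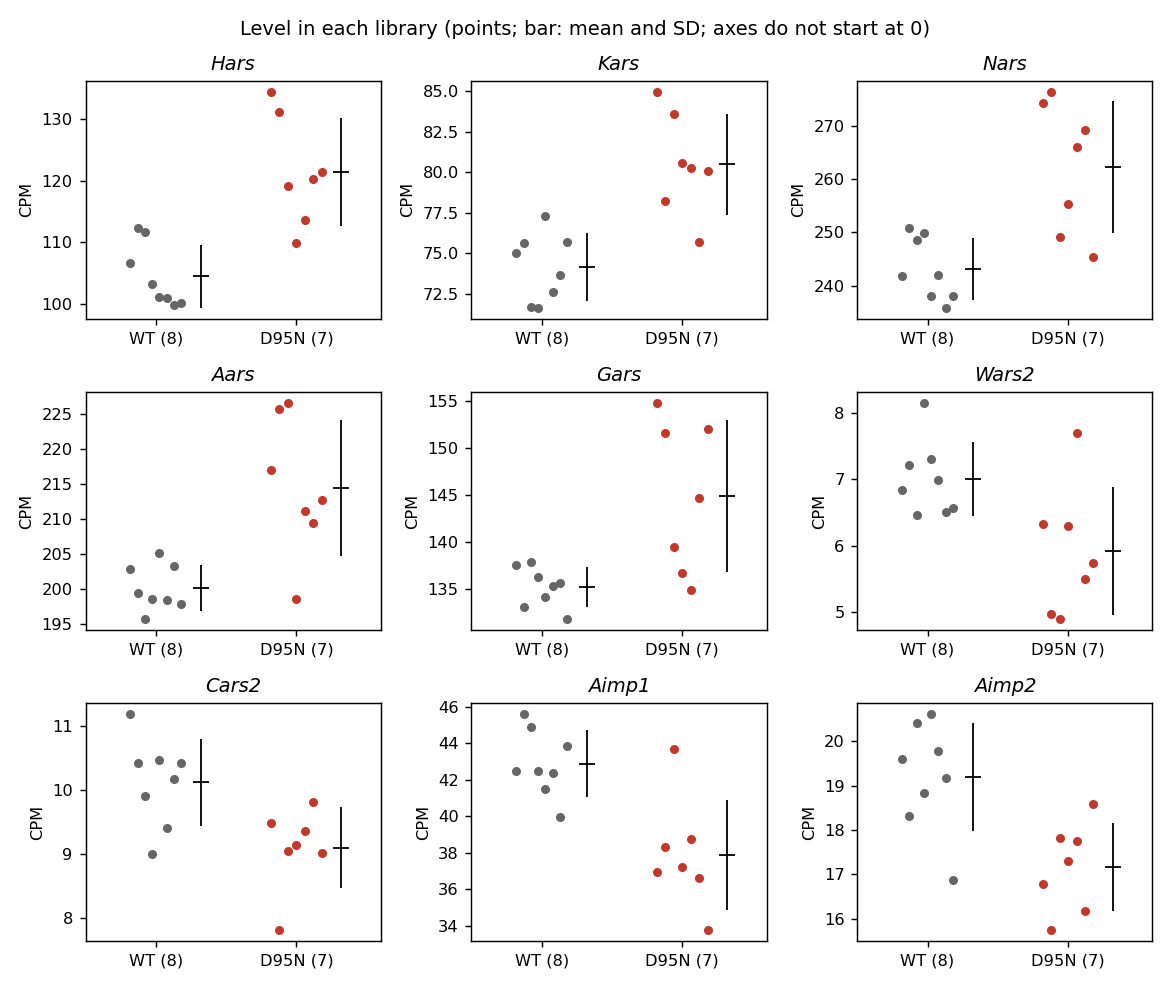
CPM (y axis) of 9 genes in each of the 8 WT and 7 D95N libraries (points), with the mean and SD beside them; the y axes do not start at 0. Hars, Kars, Nars, Aars and Gars are shifted upward in D95N and Aimp1 and Aimp2 downward, and the groups overlap in every panel.

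The other 15 cytosolic genes did not pass. Log2 fold changes were 0.14 for Mars1 (methionine), 0.12 for Vars (valine), 0.12 for Rars (arginine), 0.10 for Tars (threonine), 0.09 for Cars (cysteine) and 0.07 for Iars (isoleucine), each at an unadjusted p under 0.05. Adjusted p values of these 6 were 0.0605 to 0.0941, and each of them but Tars passed without at least 1 of the libraries: Mars1 without D95N 28 or 41, Vars without D95N 44 or WT 30, Rars without D95N 41 or 42 or WT 16, Cars without WT 24 and Iars without D95N 28. Eprs, the fused glutamyl- and prolyl-tRNA synthetase, Lars (leucine), Wars (tryptophan), Yars (tyrosine), Dars (aspartate), Sars (serine) and Farsa, a phenylalanyl subunit, lay between 0.01 and 0.06. Farsb, the other phenylalanyl subunit, was at -0.02 and Qars (glutamine) at -0.04. Part of the Iars transcript, 1656 bases, is 96.0% identical to a processed pseudogene that has no row in the tables, so its counts are less certain. Rars also passed by DESeq2 (adjusted p = 0.0446). With the GC and length correction Rars, Iars and Tars passed (adjusted p = 0.00749, 0.0116 and 0.0196), and the log2 fold change of Vars was 0.0089 (adjusted p = 0.885).

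The promoter element through which ATF4 and its C/EBP partners act was searched for as TGATGNAA on both strands, from 250 bases before to 50 bases after each start, in the RefSeq promoter table (GRCm38.p6). An entry was found for 30 of the 39 genes: 13 cytosolic, 14 mitochondrial and 3 scaffold. Those without one were Cars, Hars, Lars, Nars, Rars, Vars, Wars, Hars2 and Pars2. The letters were present in 5 of 13 cytosolic genes with an entry, 0 of 14 mitochondrial and 0 of 3 scaffold genes. They were present in 3.97% of all 32851 promoters of the same length, counted by promoter and not by gene. The 5 genes were Aars and Gars, which rose, and Iars, Tars and Yars, which did not pass. Kars, which rose, has an entry without these letters. The matches are printed to show how alike they are between genes: each stretch is on the strand of its gene, 5′ to 3′, with the match in capitals, and distances run to the first base of the match. Only Yars has the letters in the written orientation, and the others hold the reverse complement.
Aars (chr8:111033704-111033763, plus strand, 112 bases before the start): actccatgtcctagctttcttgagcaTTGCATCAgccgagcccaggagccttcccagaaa
Aars (chr8:111033840-111033869, plus strand, base 10 after the start): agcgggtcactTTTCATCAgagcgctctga
Gars (chr6:55037945-55038000, plus strand, 30 bases before the start): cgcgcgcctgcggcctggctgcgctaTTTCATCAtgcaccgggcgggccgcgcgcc
Iars (chr13:49682126-49682155, plus strand, base 8 after the start): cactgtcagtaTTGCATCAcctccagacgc
Tars (chr15:11399659-11399699, minus strand, 15 bases before the start): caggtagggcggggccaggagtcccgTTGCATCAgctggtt
Yars (chr4:129189895-129189924, plus strand, base 4 after the start): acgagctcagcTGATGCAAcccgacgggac
Such a match is a string of letters and not a measured binding site. The log2 fold changes of the 5 genes that hold it were 0.10 (Aars), 0.10 (Gars), 0.10 (Tars), 0.07 (Iars) and 0.05 (Yars).

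Within the cytosolic enzymes the 5 calls fell among class II members. Of 10 cytosolic class II genes 5 rose, and of 9 cytosolic class I genes none passed by edgeR, 5 had an unadjusted p below 0.05 and Rars passed by DESeq2, with median log2 fold changes of 0.10 and 0.07. Of all genes tested 15.2% were higher and 26.8% passed either way. Eprs, which holds an enzyme of each class, enters neither count. The difference between the classes was not tested. The called genes were also among the more abundant ones per length in WT, where Nars, Gars and Hars took ranks 1 to 3, Aars 7 and Kars 9. Sars, Wars, Farsb and Yars, at ranks 4, 5, 6 and 8, did not pass. Of the 8 enzymes of the multisynthetase complex 1 rose, Kars, and of the 12 free enzymes 4 rose, with medians of 0.06 and 0.09.

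Of the 3 scaffold genes of that complex 2 fell in D95N. Aimp1, which binds tRNA and arginyl-tRNA synthetase (ENSMUSG00000028029, chromosome 3, 132660499 to 132684370), stood at 40.0, 42.5 and 45.6 CPM in WT and at 33.8, 37.2 and 43.7 CPM in D95N. Of the D95N libraries 6 lay below every WT library and D95N 28 within their range. With edgeR, Aimp1 fell by 0.18 ± 0.05 on the log2 scale (SE, adjusted p = 0.0103), and with the GC and length correction its log2 fold change was -0.06 and did not pass (adjusted p = 0.54). Aimp2, the core organiser of the complex (ENSMUSG00000029610, chromosome 5, 143902704 to 143909847), stood at 16.9, 19.4 and 20.6 CPM in WT and at 15.7, 17.3 and 18.6 CPM in D95N. WT 43, the lowest WT library, lay below 4 of the D95N libraries. With edgeR, Aimp2 fell by 0.16 ± 0.05 on the log2 scale (SE, adjusted p = 0.0231), and without D95N 21 the adjusted p was 0.0558. Of the exon bases of Aimp2 29.4% are shared with Eif2ak1, a kinase gene on the other strand. Eef1e1, the remaining scaffold protein, was at -0.03 (adjusted p = 0.502).

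The mitochondrial genes had low levels and wider spread. Wars2, the mitochondrial tryptophanyl-tRNA synthetase (ENSMUSG00000004233, chromosome 3, 99141068 to 99239186), was the member of smallest p among them. It stood at 6.46, 6.91 and 8.15 CPM in WT and at 4.90, 5.74 and 7.70 CPM in D95N, and 6 of 7 D95N libraries lay below every WT library while D95N 42 lay above every WT library but WT 19. The edgeR estimate was -0.24 ± 0.09 (log2 fold change with SE, adjusted p = 0.0578), was -0.31 without D95N 42, where it passed (adjusted p = 0.006), and passed by DESeq2 (adjusted p = 0.046). Wars2 rests on few reads, with 119 in the lowest library.

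Cars2, the mitochondrial cysteinyl-tRNA synthetase (ENSMUSG00000056228, chromosome 8, 11513977 to 11550783), stood at 9.01, 10.3 and 11.2 CPM in WT and at 7.82, 9.14 and 9.82 CPM in D95N. D95N 21 alone lay below every WT library, and WT 19 at 9.01 CPM lay below the D95N median. The edgeR estimate was -0.15 ± 0.06 (log2 fold change with SE, adjusted p = 0.0618), and it passed without WT 19 (adjusted p = 0.039), with library totals (adjusted p = 0.0297) and with upper-quartile factors (adjusted p = 0.0371). The 3 mitochondrial genes called lower under both of those scalings were Wars2, Cars2 and Rars2.

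Of the other 14 mitochondrial genes, Ears2 (glutamate) was at -0.22, Rars2 (arginine) at -0.14, Vars2 (valine) at -0.07, Pars2 (proline) at -0.06, Tars2 (threonine) at -0.06, Fars2 (phenylalanine) at -0.04, and Aars2 (alanine) and Hars2 (histidine) at -0.02. Iars2 (isoleucine), Mars2 (methionine), Lars2 (leucine) and Yars2 (tyrosine) lay between 0.08 and 0.10, Sars2 (serine) at 0.05 and Nars2 (asparagine) at 0.02. Without D95N 42 Ears2 passed lower, as did Rars2 without D95N 21, and Iars2 passed higher without D95N 50 and Mars2 without D95N 28. In Iars2, 22.9% of exon bases are shared with Rab3gap2 on the other strand.

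Lars2, the mitochondrial leucyl-tRNA synthetase, varied more between animals of 1 genotype than any other member. It ran from 34.0 CPM through a median of 39.6 CPM to 65.4 CPM in WT, and from 29.1 CPM through 41.5 CPM to 73.7 CPM in D95N. The 2 highest libraries were D95N 28 and WT 16, 1 of each genotype, and the groups overlapped over most of their range. Its SD of log2 CPM was 0.32 in WT and 0.49 in D95N, against medians of 0.08 and 0.11 over the mitochondrial genes. The SD was larger in D95N than in WT in 34 of the 39 members, as it was in 12447 of 14989 genes tested.

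Set side by side for the same amino acid, the cytosolic gene had the higher log2 fold change in 13 of 17 pairs, where Eprs and Fars2 each enter 2 pairs. The gap was widest for tryptophan (Wars 0.05, Wars2 -0.24), glutamate (Eprs 0.06, Ears2 -0.22), arginine (Rars 0.12, Rars2 -0.14) and cysteine (Cars 0.09, Cars2 -0.15). In the pairs for isoleucine, leucine, serine and tyrosine the mitochondrial gene had the higher value. No pair was tested for its difference.

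A level relative to the other set does not depend on how libraries are scaled. This measure was chosen after the values were seen. For each library the mean log2 level of the 16 mitochondrial genes, each relative to its WT mean, was subtracted from that of the 20 cytosolic genes. Kars and Gars, which serve both compartments, were counted with the cytosolic genes, and the difference without them was not computed. The difference was -0.04 to 0.04 in the WT libraries and 0.05 (D95N 42), 0.07 (D95N 28), 0.10 (D95N 44), 0.12 (D95N 41), 0.13 (D95N 50), 0.16 (D95N 21) and 0.20 (D95N 4) in the D95N libraries. The groups did not overlap, and the means differed by 0.12. Other sets of genes were not compared in this way, so how often such a separation arises is not known. Without Lars2 the means differed by the same 0.12, but D95N 42, at 0.03, lay below WT 11. Without Hars, Hars2, Iars2, Farsb, Fars2 and Cars2, which share the largest parts of their exons with a counted gene on the other strand, the means differed by 0.12 and D95N 42 lay below WT 8, 11 and 24. The cytosolic mean by itself was -0.02 to 0.02 in WT and 0.02 to 0.12 in D95N, with D95N 41 inside the WT range. The mitochondrial mean was -0.02 to 0.04 in WT and -0.10 to -0.003 in D95N.

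**Figure D3:**
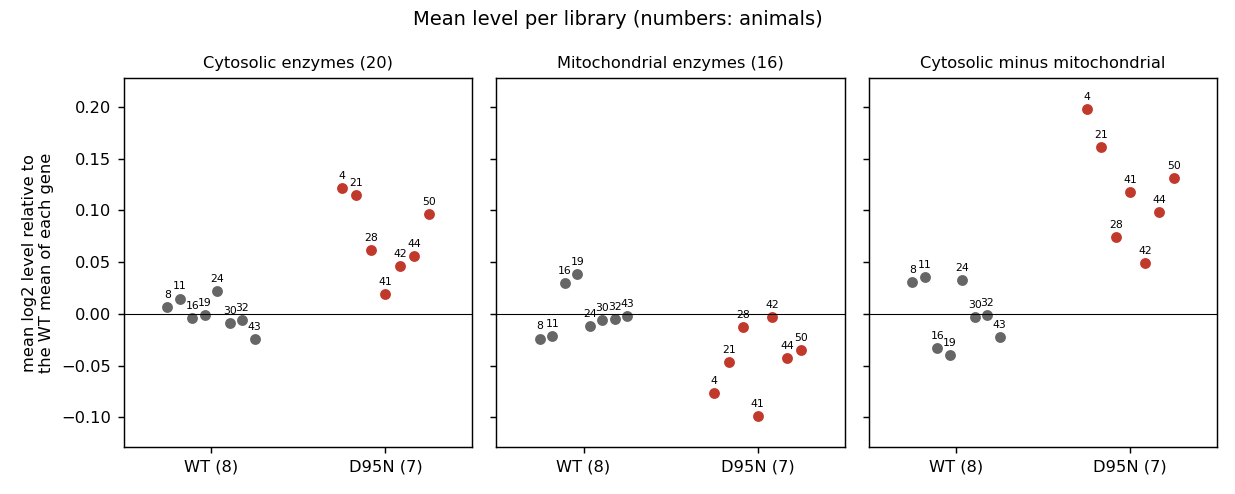
Mean log2 level of the cytosolic genes, of the mitochondrial genes and of their difference (y axis, each gene relative to its WT mean) in each library, labelled with the animal number. In the difference the 7 D95N libraries lie at 0.05 to 0.20 and the 8 WT libraries at -0.04 to 0.04, with D95N 42 nearest to the WT.

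Levels between genes were compared per length, as CPM per kilobase of annotated exon. In WT, Nars stood highest at 55.8 ± 1.34 (SD, n = 8), followed by Gars at 43.3 ± 0.675 and Hars at 42.7 ± 2.09, which did not differ beyond their spread, and then Sars at 34.6 ± 0.58 and Wars at 29.7 ± 0.768. The lowest were Cars2 at 1.40 ± 0.0937, Ears2 at 1.33 ± 0.106 and Wars2 at 1.18 ± 0.0944, of which Cars2 and Ears2 lay within their spread. The median over the cytosolic genes was 14.7 and that over the mitochondrial genes 3.28. In each of the 17 pairs the cytosolic enzyme was higher, from 1.36-fold for threonine and 1.58-fold for isoleucine to 25.2-fold for tryptophan and 27.9-fold for asparagine. With the longest annotated transcript as the length it was again higher in 17 of 17 pairs, but by 1.02-fold for threonine and 1.05-fold for leucine, where no difference can be read.

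**Figure D4:**
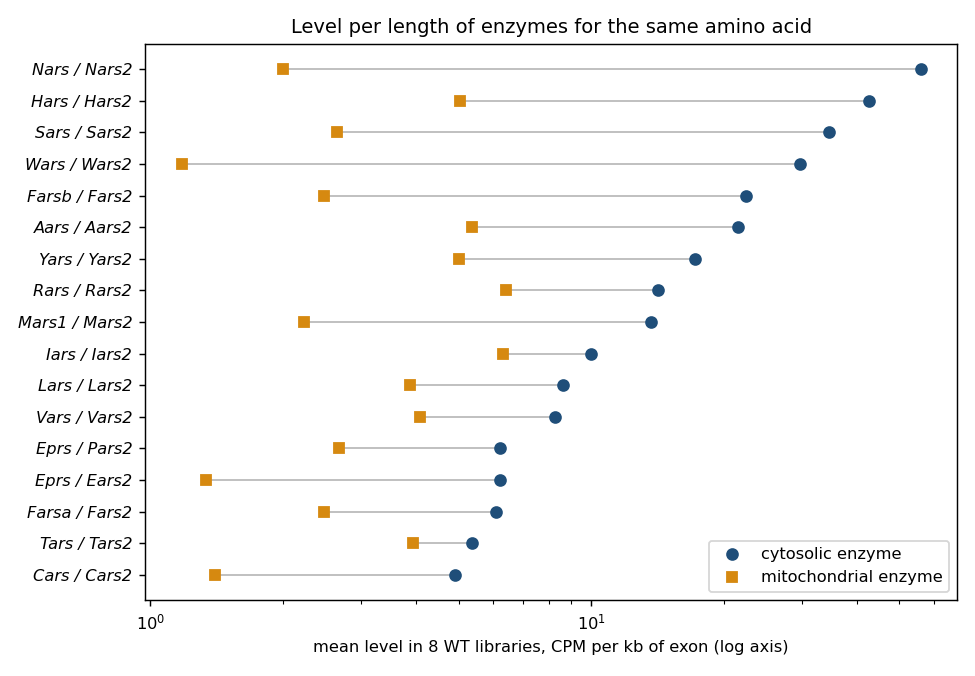
Mean level per length in the 8 WT libraries (x axis, log scale, CPM per kilobase of exon) of the cytosolic (circles) and mitochondrial (squares) enzyme for each amino acid. Circles lie to the right in all 17 pairs, with the widest gaps for Nars and Wars.

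Other genes that serve tRNA charging were read from lists. In the amino acid response list 6 of 16 rose and 2 fell. Asns, asparagine synthetase, rose 1.12-fold and Gcn1l1 (Gcn1), the partner of the uncharged tRNA sensor Gcn2, rose 1.16-fold, while Phgdh, the first enzyme of serine synthesis, fell to 0.801-fold, each in the edgeR fit (adjusted p = 0.00236, 0.00178 and 0.00146). Atf4 itself missed the threshold at 0.13 on the log2 scale (adjusted p = 0.0589). Of 5 genes of elongation factor eEF1, which delivers charged tRNA to the ribosome, 2 fell, Eef1a2 by 0.52 and Eef1a1 by 0.31 on the log2 scale, while the exchange factor subunits Eef1b2, Eef1d and Eef1g lay at -0.02, -0.0037 and 0.03. Of 14 tRNA maturation and export genes 4 rose and 1 fell. Elac2, the tRNA 3′ processing nuclease that also acts in mitochondria, rose 1.18-fold and Tsen54, a tRNA splicing subunit, 1.23-fold, and Elac1, a related nuclease, fell to 0.873-fold. Of 6 selenocysteine charging genes 2 fell, Sephs1 to 0.838-fold and Sepsecs, which completes selenocysteine on its tRNA, to 0.894-fold. In the list on mitochondrial amidation and formylation Gatc, an amidotransferase subunit, fell to 0.908-fold, and without D95N 21 its adjusted p was 0.0512. None of 7 proofreading and recycling genes passed by edgeR or by DESeq2, and 1 had an unadjusted p below 0.05 in edgeR: Aarsd1 at -0.10 on the log2 scale (adjusted p = 0.0972). Tarsl2, a second cytosolic threonyl-tRNA synthetase, rose 1.09-fold, a call lost without any 1 of 10 libraries (D95N 4, 21 or 50, or WT 8, 11, 19, 24, 30, 32 or 43). Of these 54 genes 11 rose and 8 fell, where 15.2% of all genes tested were higher and 11.6% lower. With library totals 7 rose and 13 fell, where 12.1% and 16.9% of all genes did.

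All 8 blood markers and 3 of the 8 meningeal markers were called lower in D95N. The part of these 2 lists was looked at only by entering them as covariates. That of the neuronal, astrocyte and endothelial markers was not tested. With scores of the blood and meningeal markers as covariates 0 of the 39 members passed, and so did 0.0801% of all genes tested. In that fit the log2 fold change of Hars was 0.09, of Kars 0.12, of Nars 0.06, of Aars 0.08, of Gars 0.08, of Aimp1 -0.34 and of Aimp2 -0.09, and the median was 0.07 over the cytosolic genes and -0.0034 over the mitochondrial genes. With scores of oligodendrocytes, choroid plexus and striatum 5 members passed (Hars, Kars and Vars higher, Wars2 and Aimp2 lower) and 19.8% of all genes tested.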

How the data were processed

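RNA-seq counts of 15 libraries were analysed. The deposited tables hold raw counts for Ensembl genes, made by the authors with STAR and featureCounts on GRCm38, per the submitters' processing notes. Their versions, the gene annotation and the use of strand are not in the sources used here. Symbols, positions and exon lengths came from GENCODE M21, which matched 22214 of 22524 rows. Groups and animal numbers came from the sample titles and genotype labels. The labels give no batch.

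The main test was edgeR 4.0.16 (R 4.3.3), quasi-likelihood, for genotype alone, after TMM scaling and filterByExpr. P-values were adjusted by Benjamini-Hochberg over 14989 genes and called under 0.05. The SE comes from the estimate and its F statistic. CPM and CPM per kilobase of exon were computed here. The members and lists were chosen with earlier results of these data known. Values per library are given for called members of smallest p (up to 6 cytosolic, 6 mitochondrial and 2 scaffold genes, or 2 where fewer passed), and up to 3 called genes, or 1 uncalled, per other list; Atf4, the uncalled eEF1 subunits and Lars2 were added after their values were seen. Exon overlaps came from bedtools and identical stretches (at least 95% over 200 bases) from BLAST. The test was checked on simulated counts. It recovered 2 of 50 genes changed 1.1-fold, 20 of 50 changed 1.2-fold and 47 of 50 changed 2-fold, with 6 false calls. The simulation changed fewer genes than were called in the data, so recovery in the data may differ. A member that did not pass may still differ by folds as small as those reported here. Alternatives were scaling, DESeq2 1.42.0, no filter, a GC and length correction, marker scores as covariates and each library left out. P-values set the difference between the genotypes against the spread between animals. A result on 1 gene of the other lists is not reported here.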

Additional observations from a re-analysis of the deposited data

Results flagged for a closer look

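Within a genotype, 6 values from 3 libraries stood far from the rest of their group, among 84 groups of values for the 39 genes and the 3 summed levels. Chance gives about 1 in 20 groups. WT 16 stood apart in 3 genes: Aars2 at 22.6 CPM (others 25.003 to 27.2 CPM), Mars1 at 39.4 CPM (45.9 to 50.6 CPM) and Rars at 50.3 CPM (42.953 to 45.9 CPM). D95N 28, of 24671978 total counts, stood apart in Farsa at 32.3 CPM (25.994 to 28.1 CPM) and in Mars2 at 21.4 CPM (26.3 to 29.2 CPM). D95N 21 stood apart in Cars2 at 7.82 CPM (9.01 to 9.82 CPM). Rars and Mars1, which did not pass with all libraries, had unadjusted p values of 0.0175 and 0.0207, and Rars passed without WT 16.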

How the results depend on the processing

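No analysis paired by litter was possible because the labels give no litter. The comparison therefore ignores which animals were littermates. Over the 39 genes and 7 alternatives, 213 of 273 log2 fold changes kept their direction and side of the threshold, 20 lost and 16 gained a call, and 24 changed sign, none of them called. Cytosolic genes higher numbered 5 in the main analysis, 5 without a filter, 6 with DESeq2 and 7 with the GC and length correction. They numbered 1 with library totals, 2 with upper-quartile factors, 3 with oligodendrocyte, choroid plexus and striatal scores and 0 with blood and meningeal scores. Mitochondrial genes called numbered 0, and 3 with library totals, 3 with upper-quartile factors, 1 with DESeq2 and 1 with the first scores, all lower. With the GC and length correction 3 were called, 1 lower and 2 higher. The 2 higher were Mars2 and Iars2 (edgeR, adjusted p = 0.00882 and 0.0317). Scaffold genes lower numbered 2, and 1 with the GC correction, 1 with the first scores and 0 with the blood scores. All members called numbered 7, and 11 with the GC correction and 0 with the blood scores; the other 54 charging genes went from 19 to 2 with the blood scores. The cause was not tested. Leaving out 1 library gave 6 to 10 members called (4 to 7 cytosolic higher, 0 to 2 mitochondrial, 1 to 2 scaffold lower) and 14 to 21 other charging genes. DESeq2 and the fit without a filter kept the 7 main calls.

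Sign changes with library totals were Dars -0.0032, Farsa -0.0217, Sars -0.0085 and Nars2 -0.0195, and with upper-quartile factors Farsa -0.0116 and Nars2 -0.00798. With the GC correction they were Farsb 0.0268, Hars2 0.0145, Sars2 -0.0443 and Eef1e1 0.0214. With the first scores they were Dars -0.0028, Aars2 0.0202, Hars2 0.0351 and Nars2 -0.0036. With the blood scores they were Eprs -0.023, Farsa -0.025, Farsb 0.0808, Lars -0.0447, Aars2 0.0471, Ears2 0.0695, Hars2 0.00026, Iars2 -0.0021, Lars2 -0.55 and Nars2 -0.0047. Leaving out 1 library gave both signs for Aars2 (-0.0526 to 0.0081), Dars (-0.0076 to 0.0662), Farsa (-0.0261 to 0.0283), Farsb (-0.0383 to 0.0103), Hars2 (-0.0406 to 0.0051), Lars2 (-0.0698 to 0.195) and Nars2 (-0.0059 to 0.0343). The lowest counts of any member were 119 reads for Wars2 and 125 for Ears2.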
